A study of Mus musculus with 3 samples.

Results

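The matrix metalloproteinases (MMPs) and the tissue inhibitors of metalloproteinases (TIMPs) were described in cultured mouse forestomach fibroblasts through 10 genes taken by name, Mmp2, Mmp3, Mmp10, Mmp12, Mmp13, Mmp14, Mmp19, Timp1, Timp2 and Timp3, of 19938 named genes on the array. Each of the 10 was read by exactly 1 probe set, found through the gene symbols of the platform. The 3 lines were each measured on 1 array. The Tgfbr2/Smad4 cKO line was labelled a conditional knockout (cKO) of both Tgfbr2, the gene of the type II TGF-beta receptor, and Smad4, the gene of the SMAD common to TGF-beta and BMP signals, and was derived from normal forestomach. The Tgfbr2 cKO line carried the receptor knockout and was derived from a forestomach squamous cell carcinoma. The wild-type line came from normal forestomach. All 3 were labelled FSP1 positive, came from mice described as mixed C57BL6 and BALBc of either sex, and gave RNA at passages 4 to 6 in medium with 10% serum. The age of the mice, the number of mice behind a line and what drove the deletion are not given in the sources used.

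MMPs are zinc-dependent endopeptidases that cut the proteins of the extracellular matrix. Most are secreted as inactive proenzymes whose propeptide must be removed, some are anchored in the cell membrane, and TIMPs bind the active site and block it. Fibroblasts make several of both, and MMP genes such as those of the stromelysins and collagenases are known to respond to cytokines and growth factors through AP-1, the dimer of FOS and JUN proteins, while TGF-beta is known to repress some of them.

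The values were log2 signals as deposited, so a difference of 1 is 2-fold, and 2-fold was the size taken as a call. Because each line had 1 array, differences could not be set against replicate spread, p-values are not given, and precision is limited by the number of arrays. In Tgfbr2 cKO minus wild type, genotype and tissue of origin cannot be told apart, in Tgfbr2/Smad4 cKO minus wild type genotype and sex pattern cannot, and the comparison of both knockout lines differs in all of these. Xist, transcribed from the inactive X chromosome, had log2 levels of 9.44, 5.35 and 5.33 in the Tgfbr2/Smad4 cKO, Tgfbr2 cKO and wild-type arrays, and the Y-linked Eif2s3y had 5.01, 10.00 and 10.12. The targeted genes gave no check of the labels, since the values are at transcript level and where the probes lie relative to the deleted exons is not known here. Tgfbr2 had 10.29, 10.25 and 10.25, and Smad4 had 11.04, 11.06 and 11.06, in that order of arrays. S100a4, which encodes FSP1, was well above the array median in each, at 12.71, 13.16 and 13.18. A gene counted as measured if its highest value reached the median of all values, 6.63, which 11808 named genes and all 10 MMP and TIMP genes met.

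Across the 3 lines the pattern was uneven within the family. Mmp12 and Mmp3 had higher levels in both knockout lines than in wild type, Mmp10 had its lowest level by far in the Tgfbr2/Smad4 cKO line, Mmp19 and Timp3 had their highest levels there and Timp1 its lowest, and Mmp14 and Timp2 differed by at most 0.03 and 0.17 on the log2 scale between any arrays. The differences of Mmp19, Timp3 and Timp1 were under 2-fold. For Tgfbr2/Smad4 cKO minus wild type, 4.01%, 12.1% and 7.11% of measured genes were at least as far from 0. The values of each gene are given in turn, with the plot of levels by array.

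**Figure D1:**
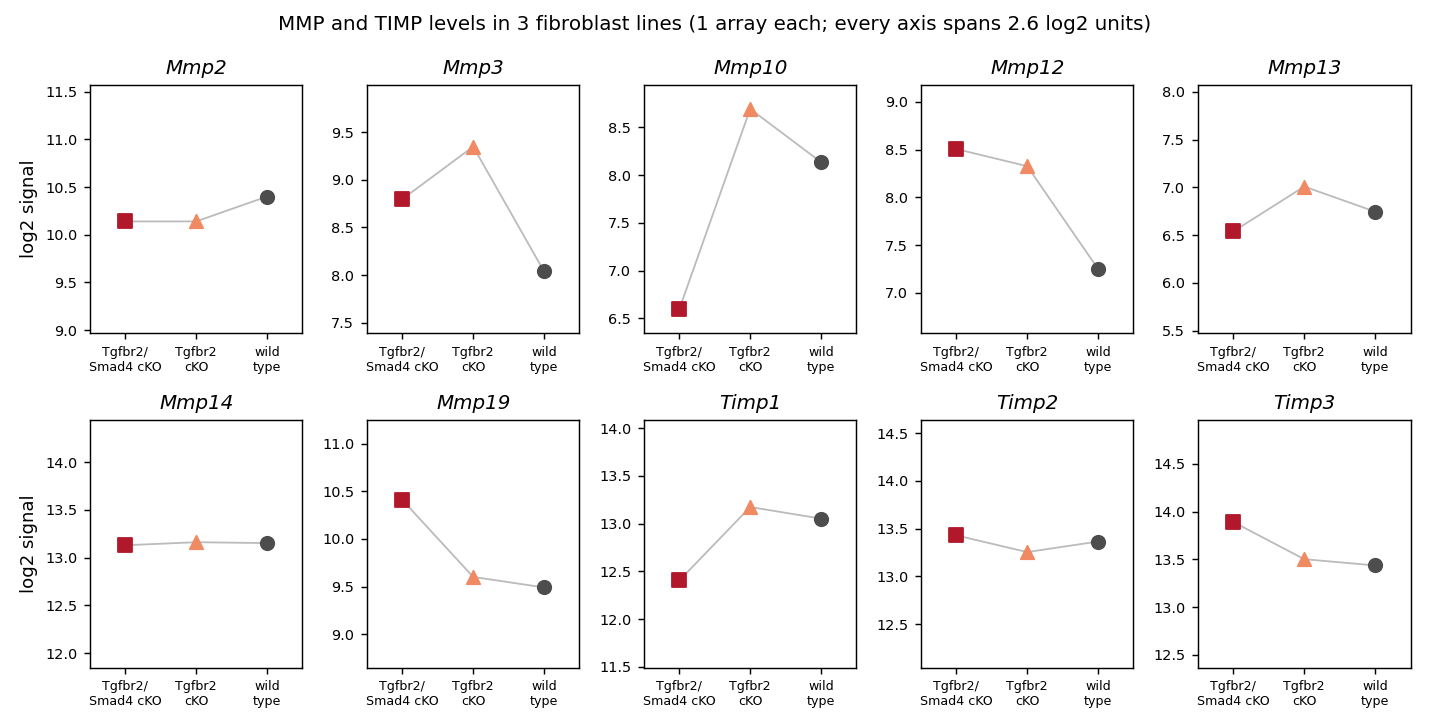
Log2 signal (vertical axes, each spanning the same number of log2 units) of the 10 MMP and TIMP genes in the Tgfbr2/Smad4 cKO, Tgfbr2 cKO and wild-type arrays (horizontal axes), 1 point per array and no error bars because there is 1 array per line. Mmp10 covers the widest range, from 6.60 to 8.69, and Mmp14 the narrowest, from 13.13 to 13.16; levels are to be compared within a gene, not between genes.

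The MMP genes Mmp13, Mmp12, Mmp3 and Mmp10 lie in 1 cluster of 10 MMP genes on mouse chromosome 9 in the RefSeq annotation of GRCm38.p6, and these included every gene of the set that differed 2-fold. The 110 bases before the annotated start of each are shown, for Mmp12 only the downstream of its 2 starts. An AP-1 element next to a TATA box is the known feature of this promoter class. Mmp14 is added as a promoter with neither. Whether these elements bear on the differences between arrays was not tested. Sequences are from RefSeq, build GRCm38.p6, 5′ to 3′, and capitals mark matches to the AP-1 letters TGANTCA and to the TATA letters TATAAA.
Mmp13, chr9:7272404-7272513, plus strand: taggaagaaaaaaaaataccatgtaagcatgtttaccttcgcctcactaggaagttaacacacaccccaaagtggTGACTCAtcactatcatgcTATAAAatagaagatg
Mmp12, the downstream start, chr9:7347264-7347373, plus strand: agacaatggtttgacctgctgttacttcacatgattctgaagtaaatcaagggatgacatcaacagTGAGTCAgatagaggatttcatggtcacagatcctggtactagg
Mmp3, chr9:7445712-7445821, plus strand: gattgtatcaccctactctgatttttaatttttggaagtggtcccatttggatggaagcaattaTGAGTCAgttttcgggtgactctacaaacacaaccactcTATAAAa
Mmp10, chr9:7502232-7502341, plus strand: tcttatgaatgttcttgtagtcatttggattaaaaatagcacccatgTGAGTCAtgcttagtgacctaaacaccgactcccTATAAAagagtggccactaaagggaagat
Mmp14, chr14:54431488-54431597, plus strand: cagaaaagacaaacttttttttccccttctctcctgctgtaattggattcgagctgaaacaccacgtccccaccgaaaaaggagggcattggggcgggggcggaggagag

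TGANTCA, which reads the same on both strands, was found once in each of the 4 promoters of the chromosome 9 genes, at base -46 before the start in Mmp3, -63 in Mmp10, -35 in Mmp13 and -44 in the downstream start of Mmp12, and each time followed by TATAAA. In Mmp12 that TATAAA lies at base 5 after the annotated start and so outside the printed stretch. The upstream start of Mmp12 held neither. Of the 10 genes, 8 had a promoter in the table, in 9 windows of 250 bases before to 50 after the start; Mmp2 and Mmp19 had no entry. TGANTCA was in 4 of the 9 windows and in 7.81% of all 32851 promoter windows, and TATAAA, searched on both strands, in 4 of 9 and in 13.6%. The ETS letters AGGAAG, searched on both strands and overlapping no match of the other motifs, were in 6 of 9 and in 35.4%. The Mmp14, Timp1, Timp2 and Timp3 windows had no TGANTCA and no TATAAA. These matches describe letters only.

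Mmp3 encodes stromelysin 1, which degrades proteoglycans, laminin and fibronectin and can activate other MMP proenzymes. Its log2 level was 8.80 in the Tgfbr2/Smad4 cKO array, 9.35 in the Tgfbr2 cKO array and 8.04 in the wild-type array. Both knockout lines were above wild type and the Tgfbr2 cKO line was the highest. The difference was 1.31 for Tgfbr2 cKO minus wild type, or 2.48-fold, the second highest of 11808 genes in that comparison. It was 0.76 for Tgfbr2/Smad4 cKO minus wild type, or 1.69-fold, which 5.6% of measured genes matched or passed in size. It was -0.55 for Tgfbr2/Smad4 cKO minus Tgfbr2 cKO.

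Mmp12 encodes macrophage elastase, an elastin-degrading MMP best known from macrophages. It had log2 levels of 8.51 in the Tgfbr2/Smad4 cKO array, 8.33 in the Tgfbr2 cKO array and 7.25 in the wild-type array. The knockout lines lay close together and wild type lay apart below them. Mmp12 was 2.39-fold higher in Tgfbr2/Smad4 cKO than in wild type and 2.11-fold higher in Tgfbr2 cKO than in wild type, and the 2 knockout lines differed by 0.18. It was the 1 gene of 11808, or 0.00847%, that was at least 2-fold lower in wild type than in both other arrays. With an offset of 32 on the linear scale the Tgfbr2 cKO difference of Mmp12 was 0.94, under 2-fold, and then 0 genes met that pattern.

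Macrophage markers were read beside Mmp12. Of 13 macrophage and leukocyte markers 12 had a value, 8 of them under the array median in every array, among them the pan-leukocyte gene Ptprc at 5.23 and the macrophage gene Adgre1 at 4.87 in each array; 9 of the 12 had exactly the same value in all 3. The macrophage receptor gene Csf1r was at 6.81 in each. Lysozyme, encoded by Lyz2, had 7.75, 9.52 and 8.70 and Cd68 had 6.76, 7.51 and 7.01 in the Tgfbr2/Smad4 cKO, Tgfbr2 cKO and wild-type arrays. The summed linear signal of the 12 was 1026, 1615 and 1246 in the same order. That sum varied only through Lyz2, Cd68 and Ly6g, so it is no measure of macrophage content. The source of the Mmp12 signal was not tested. Of 7 mast cell and basophil markers, 6 were equal in all arrays and Mcpt8 had 6.36, 8.72 and 7.72.

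Mmp10 encodes stromelysin 2, the closest relative of stromelysin 1. Its log2 level was 6.60 in the Tgfbr2/Smad4 cKO array, 8.69 in the Tgfbr2 cKO array and 8.14 in the wild-type array. The Tgfbr2/Smad4 cKO array was just under the median of all values and the other arrays were well above it. Mmp10 was 4.28-fold lower in Tgfbr2/Smad4 cKO than in Tgfbr2 cKO, a difference of -2.10 and the 37th lowest of 11808. It was 2.91-fold lower in Tgfbr2/Smad4 cKO than in wild type, a difference of -1.54. For Tgfbr2 cKO minus wild type the difference was 0.56, under 2-fold, though 0.449% of measured genes were at least as far from 0. In bulk RNA such a lower level cannot be told apart from fewer cells that express the gene. Mmp10 was set apart as at least 2-fold lower in Tgfbr2/Smad4 cKO than in both others, as were 1.87% of measured genes.

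Mmp13 encodes collagenase 3, the main interstitial collagenase of the mouse. It was dim, with log2 levels of 6.54 in the Tgfbr2/Smad4 cKO array, 7.01 in the Tgfbr2 cKO array and 6.75 in the wild-type array. The order of the arrays was that of Mmp10, with smaller steps. The differences were -0.21 for Tgfbr2/Smad4 cKO minus wild type, 0.26 for Tgfbr2 cKO minus wild type and -0.47 for Tgfbr2/Smad4 cKO minus Tgfbr2 cKO.

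The other 6 genes of the chromosome 9 cluster, Mmp1b, Mmp1a, Mmp8, Mmp27, Mmp20 and Mmp7, did not reach the level filter in any array. Their log2 levels lay between 4.21 for Mmp1a in the Tgfbr2 cKO array and 6.13 for Mmp27 in every array. In gene order from Mmp13 to Mmp7, the measured genes were thus interleaved with genes under the filter, Mmp1b between Mmp12 and Mmp3 and Mmp1a between Mmp3 and Mmp10. The stromelysin genes Mmp3 and Mmp10 had opposite differences for Tgfbr2/Smad4 cKO minus wild type, 0.76 and -1.54.

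**Figure D2:**
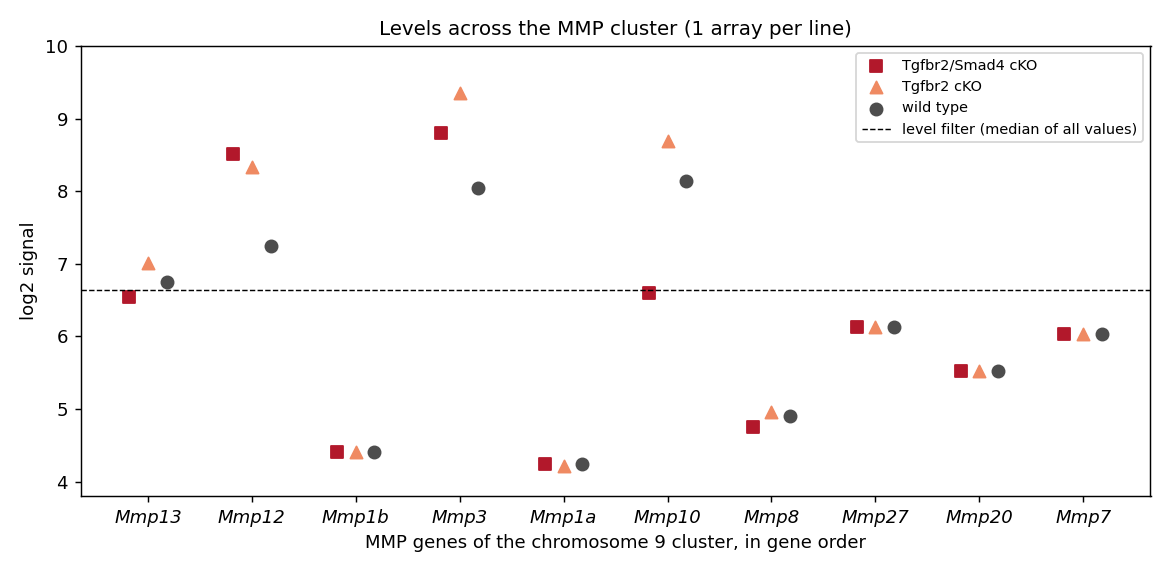
Log2 signal (vertical axis) of the 10 MMP genes of the chromosome 9 cluster in gene order (horizontal axis), in the Tgfbr2/Smad4 cKO (squares), Tgfbr2 cKO (triangles) and wild-type (circles) arrays, with the median of all values, 6.63, as a dashed line and 1 array per line. Mmp12, Mmp3 and Mmp10 are spread between arrays, while the 6 genes under the line in all arrays show little or no spread.

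None of the MMP genes of the set outside the cluster differed 2-fold. Between 0.00847% and 2.25% of measured genes did so in a given comparison and direction, so this says little. Mmp19, an MMP with broad activity on basement membrane proteins, had log2 levels of 10.41 in the Tgfbr2/Smad4 cKO array, 9.60 in the Tgfbr2 cKO array and 9.49 in the wild-type array. The Tgfbr2/Smad4 cKO array was apart from the others, by 0.92 against wild type, or 1.89-fold, and by 0.81 against Tgfbr2 cKO, both short of 2-fold. Mmp2, which encodes the gelatinase A that cuts denatured collagen and type IV collagen, had 10.14 in the Tgfbr2/Smad4 cKO array, exactly the same 10.14 in the Tgfbr2 cKO array, and 10.40 in the wild-type array, a difference of -0.26 for both knockout lines.

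Mmp14 encodes MT1-MMP, the membrane-anchored MMP that activates the MMP2 proenzyme on the cell surface together with TIMP2. It had levels of 13.13 in the Tgfbr2/Smad4 cKO array, 13.16 in the Tgfbr2 cKO array and 13.15 in the wild-type array. These spanned 0.03 on the log2 scale, the narrowest range of the 10 genes. Timp2, whose product is the partner in that activation as well as an inhibitor, had 13.43, 13.26 and 13.37 in the same order. Its differences were 0.06 for Tgfbr2/Smad4 cKO minus wild type and -0.11 for Tgfbr2 cKO minus wild type.

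Timp1, the X-linked gene of an inducible secreted inhibitor, had log2 levels of 12.40 in the Tgfbr2/Smad4 cKO array, 13.17 in the Tgfbr2 cKO array and 13.05 in the wild-type array. The Tgfbr2/Smad4 cKO array was the lowest, by -0.65 against wild type and by -0.77 against Tgfbr2 cKO, or 1.70-fold lower, and the Tgfbr2 cKO array was 0.12 above wild type. Timp3, whose product is bound to the matrix and also inhibits ADAM and ADAMTS proteases, had 13.89, 13.50 and 13.44. It was thus highest in the Tgfbr2/Smad4 cKO array, by 0.45 against wild type. No TIMP gene differed 2-fold in any comparison, where between 0.00847% and 2.25% of measured genes did so in a given direction.

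Set against Timp1 within the same arrays, the shift for Tgfbr2/Smad4 cKO minus wild type was 1.90 for Mmp12, 1.56 for Mmp19, 1.40 for Mmp3, 0.63 for Mmp14, 0.44 for Mmp13, 0.39 for Mmp2 and -0.89 for Mmp10 on the log2 scale. Set against Timp2 the same shifts were 1.19, 0.85, 0.69, -0.09, -0.27, -0.33 and -1.60, and set against Timp3 they were 0.80, 0.46, 0.30, -0.48, -0.66, -0.72 and -1.99. The direction for Mmp14, Mmp13 and Mmp2 thus depended on which inhibitor gene was used, while that of the other 4 did not. These are differences of differences and do not compare the levels of 2 genes.

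Counted over the 10 genes, Tgfbr2 cKO minus wild type had 2 genes at least 2-fold higher, Mmp3 and Mmp12, where 0.0254% of all measured genes were. Those 2 were among only 3 genes of 11808 to be that far above wild type. Of the 6 further MMP genes that reached the level filter, 0 were. The 10 genes were chosen with earlier results of these data known, so the count beside the share is no test of the family. None of the 10 was 2-fold lower, where 0.00847% of measured genes were. Differences were above 0 in 8 of 10, where 25.8% of measured genes were, and the median was 0.12, where that of all measured genes was 0, 55.1% of these having exactly the same value in both arrays.

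Tgfbr2/Smad4 cKO minus wild type had 1 gene at least 2-fold higher, Mmp12, where 1.22% of measured genes were, and 1 at least 2-fold lower, Mmp10, where 2.18% were. Differences were above 0 in 5 and below 0 in 5, where 31.1% and 32.2% of measured genes were, and the median was 0.02, with 0 over all measured genes. Tgfbr2/Smad4 cKO minus Tgfbr2 cKO had 0 genes at least 2-fold higher, where 1.32% were, and 1 lower, Mmp10, where 2.25% were, with 4 above 0 and 5 below 0, where 30.2% and 33.7% of measured genes were, and a median of -0.02, with 0 over all measured genes. The 3 comparisons share arrays in pairs and are not independent of each other. Mmp10 and Mmp12 were thus the 2 of 10 set apart by 2-fold from both other arrays in 1 array, as were 2.95% of measured genes. With so few members, these counts describe single genes.

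**Figure D3:**
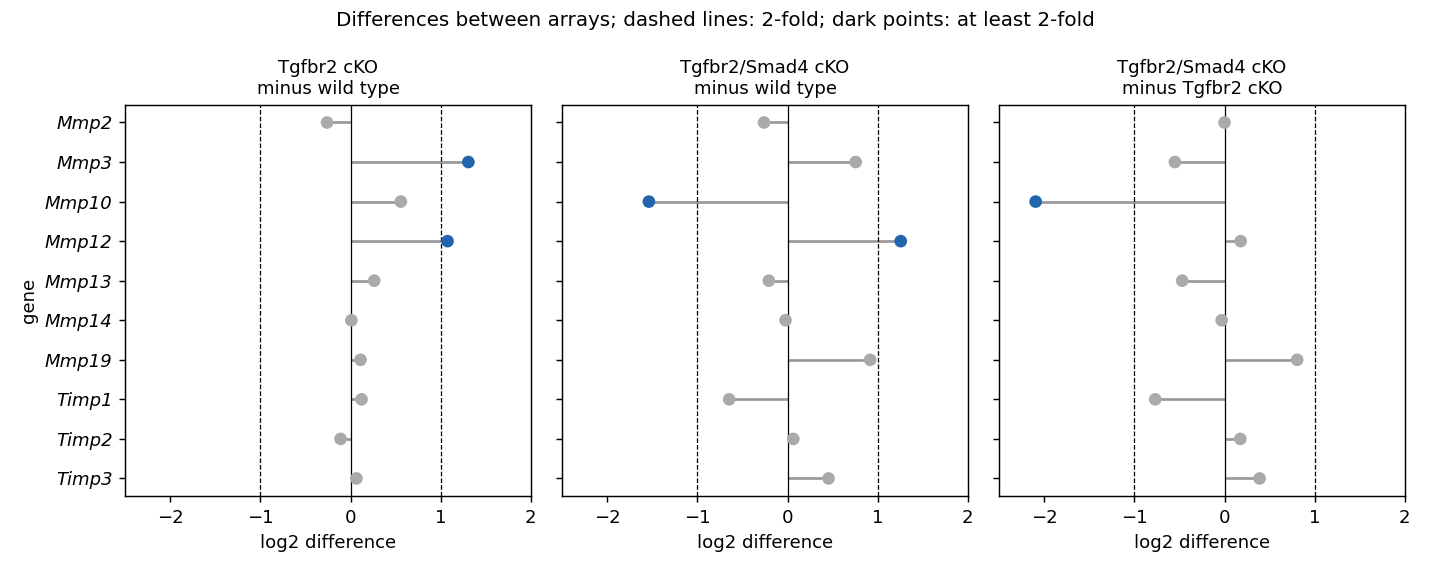
Log2 differences (horizontal axes) of the 10 genes (rows) in 3 panels, Tgfbr2 cKO minus wild type on the left, Tgfbr2/Smad4 cKO minus wild type in the middle and Tgfbr2/Smad4 cKO minus Tgfbr2 cKO on the right, with 2-fold as dashed lines and dark points for genes at or past it. Of 30 differences 5 pass it, those of Mmp3 at 1.31, of Mmp12 at 1.08 and 1.26, and of Mmp10 at -1.54 and -2.10.

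**Figure D4:**
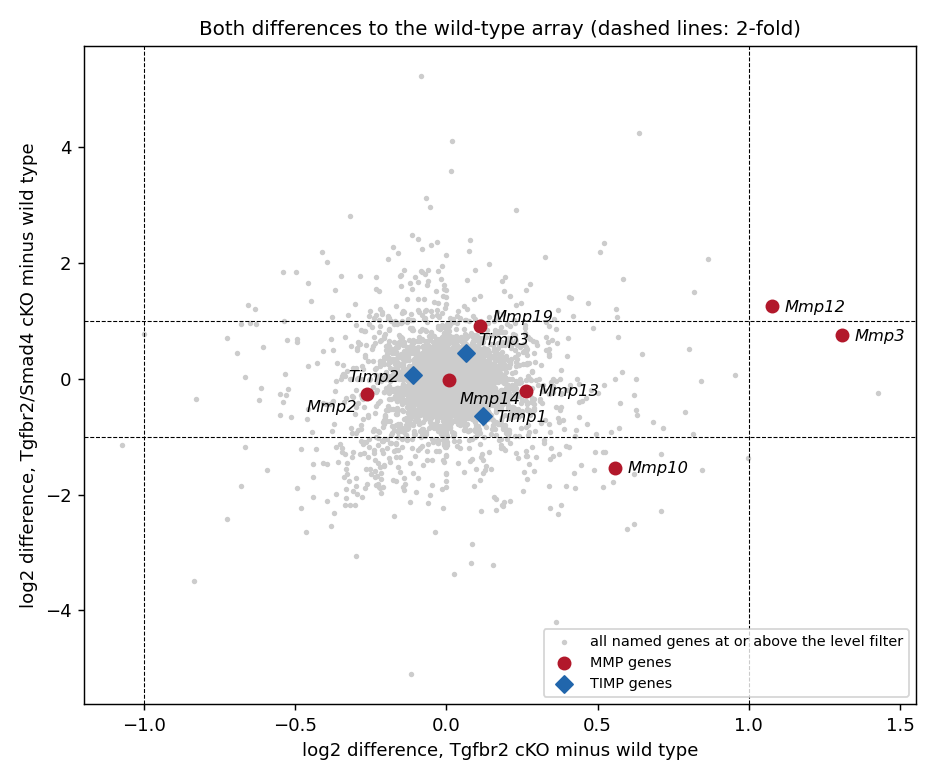
Log2 difference for Tgfbr2/Smad4 cKO minus wild type (vertical axis) against that for Tgfbr2 cKO minus wild type (horizontal axis), 1 grey point for each of 11808 measured genes, circles for MMP and diamonds for TIMP genes, and 2-fold as dashed lines. The axes share the wild-type array, so no relation between them is read; Mmp12 is alone in being at least 2-fold higher on both axes, and Mmp3 lies beyond it to the right, at 1.31 and 0.76.

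The genes whose profile over the 3 arrays was most like each of the genes that differed 2-fold were found by the Euclidean distance between mean-centred log2 levels, where a distance of 0 is the same profile. Mmp10 had close neighbours, Rgs16 at 0.05, Crispld2 at 0.10 and Fhl5 at 0.12, with differences of -1.58, -1.63 and -1.48 for Tgfbr2/Smad4 cKO minus wild type. Mmp12 and Mmp3 had none as close. The nearest to Mmp12 were Cyp7b1 at 0.36, Abhd14b at 0.37 and Alyref2 at 0.40, and the nearest to Mmp3 were Sparcl1 at 0.36, Lama4 at 0.47 and Clca3a2 at 0.49. Over 3 arrays, likeness of this kind says little.

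Of 16 further MMP genes 15 had a value and 6 reached the level filter. None of the 6 was 2-fold different in any comparison. Between 0.00847% and 2.25% of measured genes were, in a given comparison and direction, so 0 of 6 says little. Mmp11, the gene of stromelysin 3, had 9.71, 9.04 and 9.08 in the Tgfbr2/Smad4 cKO, Tgfbr2 cKO and wild-type arrays, and Mmp23, that of a membrane-linked MMP, had 9.12, 9.79 and 9.82. The Tgfbr2/Smad4 cKO array stood apart for both, in opposite directions, with differences to wild type of 0.63 and -0.70. The gelatinase B gene Mmp9 was at 5.84 in every array, under the filter.

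Among 7 further genes of MMP inhibitors or related proteins, 5 reached the filter. Pcolce, an enhancer of procollagen C-proteinase whose fragment has been described as an MMP inhibitor, was 2-fold higher in Tgfbr2/Smad4 cKO than in both other arrays. It differed by 1.12 from wild type and by 1.33 from Tgfbr2 cKO, where 1.22% and 1.32% of measured genes were 2-fold higher. The protease inhibitor gene Tfpi2, with 6.93, 8.37 and 7.88, was lower in Tgfbr2/Smad4 cKO than in Tgfbr2 cKO, by -1.45. There 2.25% of measured genes were 2-fold lower. Reck, which encodes a membrane-anchored MMP inhibitor, had 10.05, 9.36 and 9.48. Their median difference was 0.57 for Tgfbr2/Smad4 cKO minus wild type and -0.03 for Tgfbr2 cKO minus wild type.

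Of 17 genes of MMP activation and clearance 14 had a value and 10 reached the filter, 1 of them 2-fold higher and 2 lower for Tgfbr2/Smad4 cKO minus wild type, where 1.22% and 2.18% of measured genes were. For Tgfbr2 cKO minus wild type 0 were, where 0.0254% and 0.00847% of measured genes were. Plau, the urokinase that makes plasmin, an activator of MMP proenzymes, had 8.81, 11.01 and 10.85 in the Tgfbr2/Smad4 cKO, Tgfbr2 cKO and wild-type arrays, and its receptor gene Plaur had 9.68, 11.09 and 10.97. The proprotein convertase gene Pcsk6 had 10.40, 8.62 and 9.06. Plau and Plaur were thus lowest, and Pcsk6 highest, in the Tgfbr2/Smad4 cKO array. The other plasminogen activator gene, Plat, went the other way from Plau, with 9.54, 8.66 and 8.95. For Tgfbr2/Smad4 cKO minus wild type the list median was -0.01. There 4 members were above 0, 5 below and 1 equal, where 31.1% of measured genes were above and 32.2% below. Furin, the convertase that activates MT1-MMP, had 9.78, 10.39 and 10.28, and the clearance receptor gene Lrp1 had 12.61, 12.07 and 12.08.

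Of 23 genes for transcription factors known at MMP promoters 21 had a value and 20 reached the filter. None of the 20 differed 2-fold in any comparison. Between 0.00847% and 2.25% of measured genes did so in a given comparison and direction, so 0 of 20 says little. Fos had 8.42, 9.02 and 9.02, Jun had 9.39, 9.92 and 9.91, and Fosl1 had 8.21, 8.80 and 8.69 in the Tgfbr2/Smad4 cKO, Tgfbr2 cKO and wild-type arrays. All 3 were lowest in the Tgfbr2/Smad4 cKO array, by -0.60, -0.53 and -0.48 against wild type, while Junb, Fosl2, Fosb, Atf3 and Jund differed by -0.05, -0.03, 0, 0 and 0 and Egr1 by 0.40. The ETS gene Etv4 and Runx1 were also lower there, by -0.54 and -0.30 against wild type. The list median for Tgfbr2/Smad4 cKO minus wild type was 0, with 5 members above 0, 9 below and 6 equal. Of all measured genes 31.1% were above 0, 32.2% below and 36.7% equal. Of 22 cytokine inducers and receptors 19 had a value and 15 reached the filter, with 2 at least 2-fold lower for Tgfbr2/Smad4 cKO minus wild type, where 2.18% of measured genes were, and 0 past 2-fold for Tgfbr2 cKO minus wild type, where 0.0254% were higher and 0.00847% lower. The 2 lower genes were Il6, with 6.89, 9.88 and 9.17, and the cyclooxygenase gene Ptgs2, with 12.73, 13.76 and 13.80. Il11 had 7.03, 8.39 and 7.60. For Tgfbr2/Smad4 cKO minus Tgfbr2 cKO 3 were at least 2-fold lower, where 2.25% of measured genes were, Il6 at -2.99, Il11 at -1.36 and Ptgs2 at -1.04.

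Of 28 genes for matrix proteins that MMPs can cut, 25 had a value and 24 reached the filter. For Tgfbr2/Smad4 cKO minus wild type, 3 were at least 2-fold higher, Col6a1 at 1.81, Col6a2 at 1.38 and the proteoglycan gene Lum at 1.21, and 2 were lower, the laminin gene Lama2 at -1.55 and the proteoglycan gene Vcan at -1.15, where 1.22% of measured genes were higher and 2.18% lower. The interstitial collagen genes Col1a1 and Col3a1 differed by 0.19 and 0.43. Of the 24, 19 were above 0, 4 below and 1 equal, where 31.1% of measured genes were above and 32.2% below. The list median was 0.21. For Tgfbr2 cKO minus wild type 0 passed 2-fold, where 0.0254% of measured genes were higher and 0.00847% lower, and the median was 0.04. Of 15 genes of TGF-beta ligands, receptors and SMADs 1 passed 2-fold, Tgfb2 at 1.07 for Tgfbr2/Smad4 cKO minus wild type, where 1.22% of measured genes were higher, and the median was -0.02 there and 0 for Tgfbr2 cKO minus wild type.

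Marker lists also differed between the arrays. For Tgfbr2 cKO minus wild type, 6 of 7 measured mesothelial markers were below 0, where 19.0% of measured genes were. Their median was -0.41. Upk3b, at -1.07, was the 1 gene of 11808 that was 2-fold lower, followed by Upk1b at -0.83, Msln at -0.46 and Wt1 at -0.41. For Tgfbr2/Smad4 cKO minus wild type, all 7 were below 0 and 3 were 2-fold lower, where 32.2% and 2.18% of measured genes were. The median there was -0.61, and the 3 were Upk1b at -3.48, Krt19 at -1.89 and Upk3b at -1.14. Of 13 measured proliferation genes 9 were at least 2-fold lower in Tgfbr2/Smad4 cKO than in wild type and 13 were below 0, where 2.18% and 32.2% of measured genes were, with summed linear signals of 4993, 10510 and 11810 in the Tgfbr2/Smad4 cKO, Tgfbr2 cKO and wild-type arrays. Of 8 measured smooth muscle and pericyte markers 4 were at least 2-fold lower and 1 higher in Tgfbr2/Smad4 cKO than in wild type, where 2.18% and 1.22% of measured genes were, and the sums over all 9 with a value were 42390, 76180 and 73660. The 8 mesothelial markers summed to 993, 1909 and 2511, and the 10 epithelial markers to 817, 1354 and 1261, with Epcam at 5.74 and Krt5 at 5.69 in each array. Krt19, Krt8 and Krt18 are in both lists. Krt19 had 6.93, 9.25 and 8.82, while Krt8 with 6.66, 6.69 and 6.96 and Krt18 with 6.49, 6.80 and 7.10 were highest in wild type, as was Dsp, which differed from wild type by -0.49 in Tgfbr2/Smad4 cKO and -0.11 in Tgfbr2 cKO. The 7 endothelial markers had equal values in all 3 arrays. Of 13 fibroblast markers 3 were at least 2-fold higher in Tgfbr2/Smad4 cKO than in wild type, Pdgfra at 1.40, Lum at 1.21 and Fap at 1.09, and 1 was lower, Thy1 at -2.36, where 1.22% and 2.18% of measured genes were, and the 13 summed to 131700, 123100 and 120000, a sum carried by bright genes such as Col1a1. The part of these in the MMP and TIMP differences was not tested.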

How the data were processed

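RNA from 3 mouse forestomach fibroblast lines was measured on the Affymetrix mouse Gene 1.0 ST array, 1 per line, with 1 value per transcript, per the labels' description. The deposited values were read as log2 signals from their range, 2.82 to 15.6; the software, normalization and build behind them are not stated in the sources used. Array medians differed by at most 0.00412, so values were used as deposited. Of 35556 probe sets 40.4% showed no difference at all among the 3 arrays, which can hide small differences.

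Probe sets with 1 symbol in the platform annotation, 21789, were averaged per gene, giving 19938 genes; 1621 had several symbols and 12146 were not listed. Symbols were updated through a RefSeq table of GRCm38.p6. The level filter, 2-fold rule and profile distance are given with the results. The genes named were the 10 listed, members of the other lists at 2-fold or the largest 2, further members with textbook roles, and the 3 nearest profiles with 1 probe set and an established symbol; Xist and Eif2s3y were added later. Members and lists were chosen with earlier results of these data known. Steps were tested on simulated data. Python 3.11.15, pandas 2.3.3, numpy 2.4.6, R 4.3.3 and limma 3.58.1 were used. Alternatives were 3 normalizations, 2 level filters, the brightest probe set, an offset of 32, size rules of 1.5-fold and 3-fold and, chosen after seeing the data, genes whose 3 values all differ.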

Additional observations from a re-analysis of the deposited data

Results flagged for a closer look

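Among the 10 genes, 3 had differences to wild type of opposite sign in the Tgfbr2/Smad4 cKO and Tgfbr2 cKO lines. Each difference was at least 0.1 from 0 on the log2 scale. How many of all measured genes did so was not counted, so the 3 describe single genes. With 1 array per line the difference between the lines was not tested. Mmp10 had -1.54 in Tgfbr2/Smad4 cKO and 0.56 in Tgfbr2 cKO, a gap of -2.10. Timp1 had -0.65 and 0.12, a gap of -0.77. Mmp13 had -0.21 and 0.26, a gap of -0.47, at levels near the median of all values.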

How the results depend on the processing

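No paired analysis was possible because each line had 1 array and the labels give no replicate numbers. Cyclic loess and quantile normalization changed no count of MMP and TIMP genes past 2-fold. Median centring could change none, since array medians differed by at most 0.00412 and no difference lay that close to 2-fold. Dropping the level filter and using the brightest probe set could change none, since all 10 genes met the filter with 1 probe set each. The restriction to genes whose 3 values all differ could change none either, since it removed only Mmp2, which was under 2-fold in every comparison. The filter at the 75th percentile left 7 of the 10 genes, without Mmp10, Mmp12 and Mmp13, so that 1 was 2-fold higher for Tgfbr2 cKO minus wild type, 0 were higher and 0 lower for Tgfbr2/Smad4 cKO minus wild type, 0 were lower for Tgfbr2/Smad4 cKO minus Tgfbr2 cKO, and 0 were set apart in 1 array. An offset of 32 left 1 gene 2-fold higher for Tgfbr2 cKO minus wild type, 1 set apart, and 0 genes of all set apart as lower in wild type, since Mmp12 went to 0.94. At 1.5-fold, 3 genes were higher and 2 lower for Tgfbr2/Smad4 cKO minus wild type, 1 higher and 2 lower for Tgfbr2/Smad4 cKO minus Tgfbr2 cKO, 5 were set apart, and 5 genes of all were lower in wild type than in both others, Mmp12, Mmp3, Cyp7b1, Dpt and Pdgfrl. The shares of all measured genes past 1.5-fold or 3-fold were not counted. For Tgfbr2/Smad4 cKO minus wild type, 7.11% of measured genes were at least as far from 0 as Timp1 at -0.65. At 3-fold, 0 passed against wild type in either direction, 0 were set apart and 1, Mmp10, was lower for Tgfbr2/Smad4 cKO minus Tgfbr2 cKO. None of the 5 differences past 2-fold changed direction under cyclic loess or quantile normalization. The other alternatives could not reverse a difference of that size. The deposited table has no background or detection values, so how far the dim genes Mmp13 and, in Tgfbr2/Smad4 cKO, Mmp10 lay above background is unknown.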
